A study of Mus musculus with 16 samples.

Results

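Genes of cholesterol and fatty acid synthesis were followed in 16 RNA-seq libraries of sorted mouse colon epithelium. They were chosen by pathway, with earlier results of these data known, and taken from the count table by gene symbol. Shares over all genes tested stand beside their counts as description only. The set holds 18 enzymes of the sterol branch, 8 of the fatty acid branch and 6 regulators and carriers, 32 genes of the 21442 gene rows. All 32 were found, 31 under their current symbol and Msmo1 under the older symbol Sc4mol. All 32 also passed the filter on low counts, which left 12915 genes in the tests.

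The mice were 6–8 weeks old, and cells were released from the distal colon and sorted on the mCherry signal of the reporter RedMUC298trTg, which every group carries. SpdefKO_GC are the mCherry-positive goblet cells of Spdef-/- reporter mice, and WT_GC are the mCherry-positive goblet cells of reporter mice with intact Spdef. SpdefKO_EC are the mCherry-negative epithelial cells of the Spdef-/- reporter mice, and WT_EC are the mCherry-negative epithelial cells of the reporter mice with intact Spdef. Each group has 4 libraries. Spdef encodes a transcription factor of the ETS family known for its part in goblet cell maturation, and goblet cells are the mucus-secreting cells of the gut lining. No source used here names the promoter of the reporter. It is also not stated that replicate libraries are from different animals, and the p-values cover only the variation among libraries, which may be technical. The library numbers run in 8 adjacent pairs of 1 goblet cell and 1 mCherry-negative library of the same genotype, and all 8 pairs deviated together from their group means. No label says that a pair is from 1 mouse, so the comparisons were fitted without the pairs, and a fit with the pairs as a block, added after the data were seen, is given where it changes a call. Each pair lies within 1 genotype, so the genotype contrasts within a fraction have no such fit. MinElute columns were used for goblet cell RNA and Mini columns for the mCherry-negative cells, and purification and sorted fraction cannot be told apart.

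Cholesterol is built from acetyl-CoA through the mevalonate pathway, which ends in farnesyl diphosphate, and then through squalene and lanosterol in the endoplasmic reticulum. Fatty acid synthesis starts from the same acetyl-CoA, which ATP citrate lyase supplies in the cytosol, and its products are elongated and desaturated afterwards. Both branches are under transcription factors of the SREBP family, the products of Srebf1 and Srebf2. SCAP carries these membrane-bound precursors to the Golgi for cleavage when sterols are low, and INSIG proteins hold the complex back when sterols are high. SREBP-2 is best known for the sterol genes and SREBP-1c for the fatty acid genes, and both bind promoters together with the factor NF-Y.

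Promoter sequences were read for the members that have an entry in the RefSeq table of build GRCm38.p6, which were 25 of the 32 members with 33 promoters. Each promoter ran from 250 bases before to 50 bases after the transcription start. Those of Hmgcs1 and Idi1 are shown for the mevalonate enzymes that were higher in the mCherry-negative cells of Spdef-/- mice, and those of Msmo1 and Insig1 for the members whose genotype difference itself differed between the sorted fractions with any single library left out. Capitals mark the searched motifs on either strand: the NF-Y box CCAAT, which reads ATTGG on the opposite strand, the core of the sterol response element, TCACNCCAC, and the E-box, which has the letters CACGTG. The 250 bases before the start are printed 5′ to 3′ along the gene, from chr13:119690101-119690350 (plus strand) for Hmgcs1, chr13:8885356-8885605 (plus strand) for Idi1, chr8:64733579-64733828 (minus strand) for Msmo1 and chr5:28071162-28071411 (plus strand) for Insig1.
Hmgcs1: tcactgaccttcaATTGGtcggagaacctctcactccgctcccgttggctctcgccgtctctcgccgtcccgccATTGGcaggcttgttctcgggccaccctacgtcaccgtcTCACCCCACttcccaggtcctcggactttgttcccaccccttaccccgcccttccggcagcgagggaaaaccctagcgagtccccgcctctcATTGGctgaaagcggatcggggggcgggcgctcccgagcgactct
Idi1: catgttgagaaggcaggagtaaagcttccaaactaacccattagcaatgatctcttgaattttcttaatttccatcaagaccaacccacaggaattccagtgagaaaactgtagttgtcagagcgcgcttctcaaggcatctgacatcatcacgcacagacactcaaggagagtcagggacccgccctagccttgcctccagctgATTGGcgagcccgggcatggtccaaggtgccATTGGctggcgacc
Msmo1: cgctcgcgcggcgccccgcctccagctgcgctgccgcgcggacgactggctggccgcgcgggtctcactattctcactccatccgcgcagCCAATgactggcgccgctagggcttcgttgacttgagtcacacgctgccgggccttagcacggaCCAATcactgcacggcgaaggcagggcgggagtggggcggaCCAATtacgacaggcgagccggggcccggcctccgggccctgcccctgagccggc
Insig1: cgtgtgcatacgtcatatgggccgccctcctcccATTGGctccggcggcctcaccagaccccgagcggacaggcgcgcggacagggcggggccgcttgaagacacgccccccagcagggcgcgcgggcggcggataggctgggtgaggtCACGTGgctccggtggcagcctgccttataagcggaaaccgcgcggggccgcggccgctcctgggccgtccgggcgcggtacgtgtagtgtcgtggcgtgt

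CCAAT was the motif these promoters had in common. It stood on either strand in the promoters of 20 of the 25 members, 80.0%, against 41.1% of the 27025 genes in the table. By branch it was present for 14 of 15 sterol members, 2 of 5 fatty acid members and 4 of 5 regulators. CACGTG was present for 5 of 25 members, against 8.09% of all genes, and those members were Dhcr7, Hsd17b7, Sc5d, Insig1 and Scap. TCACNCCAC was present for Hmgcs1 only among the 25, against 1.44% of all genes, and its match began 137 bases before the RefSeq start. GENCODE vM21 begins the Hmgcs1 gene at chr13:119690379, downstream of that start, so the distance depends on the annotation. No match of one motif overlapped a match of another in the members' promoters. A match describes the letters in this window and not a bound site.

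The gene counts came to 10085637–17111987 per library, and 47.1–54.7% of all counts stood in rows that name no gene. The levels are CPM, counts scaled to library size over gene rows and corrected for composition, and values within a group are given in order of library number (3, 5, 7 and 19 for SpdefKO_GC, 9, 11, 13 and 18 for WT_GC, 4, 6, 8 and 20 for SpdefKO_EC, 10, 12, 14 and 17 for WT_EC). Spdef itself had 368, 373, 446 and 294 CPM in SpdefKO_GC and 279.8, 306, 281 and 315 CPM in WT_GC, and it stayed at 1.15–3.51 CPM in SpdefKO_EC and 1.82–3.77 CPM in WT_EC. The counts of Spdef were therefore not lower in the libraries labelled SpdefKO, and the genotype is given below as labelled. The sort is visible in Muc2, the main gel-forming mucin of goblet cells, at 12542 ± 1689 CPM in SpdefKO_GC and 12079 ± 681 CPM in WT_GC, against 28.0 ± 8.93 CPM in SpdefKO_EC and 48.3 ± 8.14 CPM in WT_EC (SD, n = 4 each). In bulk RNA, fewer cells of a type and less RNA per cell cannot be told apart.

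Per kilobase of exon, the members spanned a wide range of levels in every group. Scd2, a stearoyl-CoA desaturase, stood at 263 ± 52.4 CPM per kb in SpdefKO_GC and 269 ± 62.9 in WT_GC, with 299 ± 32.7 in SpdefKO_EC and 244 ± 61.0 in WT_EC (SD, n = 4 each). Hmgcs1, which makes HMG-CoA, stood at 330.1 ± 44.8, 271 ± 59.9, 235 ± 23.7 and 149 ± 9.65 CPM per kb in those 4 groups, and Insig1 at 149 ± 21.3, 184 ± 18.99, 140.4 ± 12.2 and 110.1 ± 11.4. These were the 3 highest means in each group, and Scd2 and Hmgcs1 did not separate beyond their spread in the goblet cell groups. At the low end stood Fads1, a fatty acid desaturase, with 5.95 ± 1.54 CPM per kb in SpdefKO_GC and 3.77 ± 0.176 in WT_GC, with 7.03 ± 1.56 in SpdefKO_EC and 4.50 ± 0.629 in WT_EC. Even Fads1 rested on 1093 counts over the 4 WT_GC libraries. In GENCODE vM21, exons of Fdft1, Lss, Cyp51 and Srebf1 overlap a gene on the other strand, and those of Tm7sf2 overlap Vps51 on the same strand. The annotation used for the counts was not given, and the levels of these 5 genes are uncertain.

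**Figure D1:**
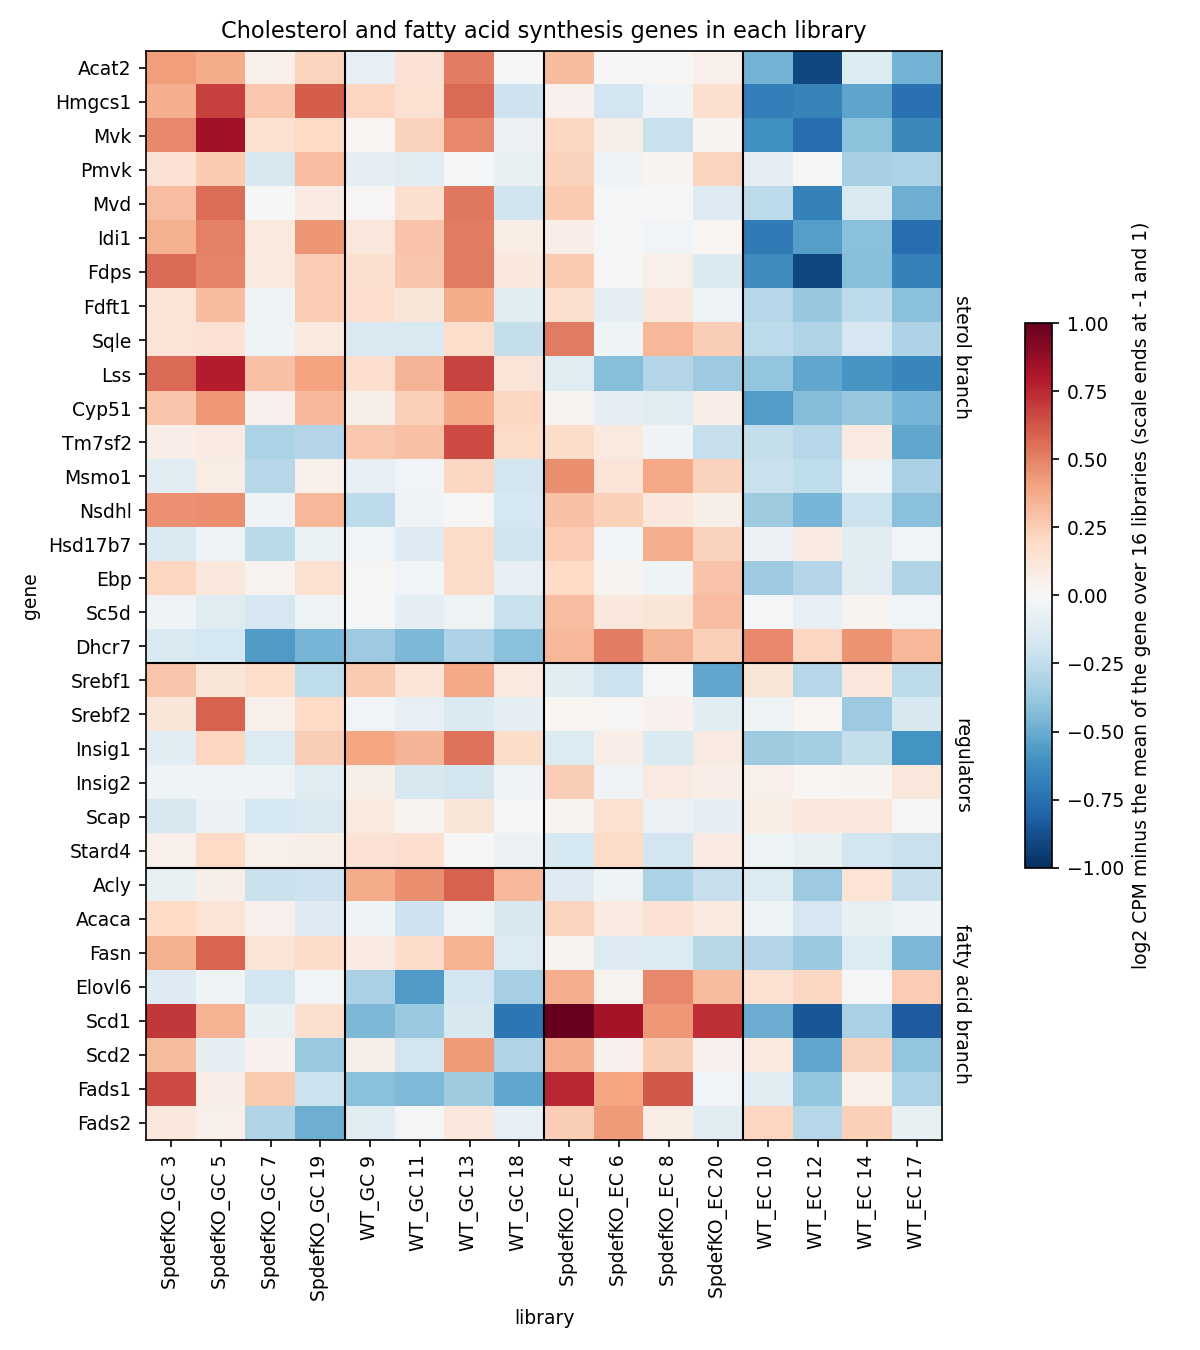
Heat map of the 32 genes (rows, by branch) in the 16 libraries (columns, by group); colour is log2 CPM minus the gene's own mean over the 16 libraries. The mevalonate rows from Acat2 to Fdps are blue or near white in the 4 WT_EC libraries, and Scd1 is red in all 4 SpdefKO_EC libraries.

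The first question was whether the members differ with Spdef genotype in the mCherry-negative epithelial cells. There, 16 of 32 members were higher in SpdefKO_EC than in WT_EC and 0 were lower, at an edgeR adjusted p under 0.05 over all tested genes. DESeq2, limma-voom and an unadjusted edgeR p under 0.05 also gave 0 lower members. Of all 12915 genes tested, 6.09% were called higher and 6.54% lower in this comparison. The higher members were 12 of 18 sterol genes, 3 of 8 fatty acid genes and 1 of 6 regulators. The median log2 change was 0.42 for the sterol branch, 0.20 for the fatty acid branch and 0.08 for the regulators, against 0.01 over all genes tested. The libraries of the groups did not overlap for 16 of 32 members, where 15.3% of all genes show no overlap.

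In the mevalonate pathway, 5 of 7 members rose in SpdefKO_EC. Hmgcs1 had 1109.6, 946, 1053 and 1207 CPM in SpdefKO_EC, against 673, 677, 747 and 642 CPM in WT_EC (log2 0.66 ± 0.13, edgeR adjusted p = 0.00342). Every SpdefKO_EC library lay above every WT_EC library. Fdps, which makes farnesyl diphosphate, had 213, 178, 184 and 161 CPM in SpdefKO_EC, against 115, 94.7, 132 and 111 CPM in WT_EC (log2 0.70 ± 0.12, edgeR adjusted p = 0.00119). Idi1, the isopentenyl diphosphate isomerase, had 77.5, 73.1, 72.7 and 74.9 CPM in SpdefKO_EC, against 45.3, 50.5, 55.4 and 43.5 CPM in WT_EC (log2 0.61 ± 0.10, edgeR adjusted p = 0.000936). For both genes the groups again stood apart, and the SpdefKO_EC libraries of Idi1 lay close together. Mvk, mevalonate kinase, averaged 38.8 ± 4.65 CPM in SpdefKO_EC and 25.1 ± 2.55 CPM in WT_EC (log2 0.62 ± 0.15, edgeR adjusted p = 0.0115). Acat2, which joins acetyl-CoA units ahead of Hmgcs1, averaged 56.1 ± 6.18 CPM in SpdefKO_EC and 37.7 ± 8.10 CPM in WT_EC (log2 0.57 ± 0.15, edgeR adjusted p = 0.0180), and its adjusted p was 0.0701 without SpdefKO_EC 4. Acat2 lies on chromosome 17, as Spdef does, 14.8 Mb away. The other mevalonate members did not pass: Pmvk had log2 0.29 ± 0.10 (edgeR adjusted p = 0.0613) and Mvd had log2 0.42 ± 0.16 (edgeR adjusted p = 0.0878).

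From squalene onward, 7 of 11 members rose. Sqle, the squalene epoxidase, had 309, 209, 271 and 256 CPM in SpdefKO_EC, against 179.9, 175, 191 and 174 CPM in WT_EC (log2 0.54 ± 0.10, edgeR adjusted p = 0.00223). Msmo1, a methylsterol monooxygenase, had 463, 366, 439 and 392 CPM in SpdefKO_EC, against 288, 281, 323 and 268 CPM in WT_EC (log2 0.52 ± 0.10, edgeR adjusted p = 0.00245). Nsdhl, which acts with Msmo1 in removing the methyl groups, had 57.2, 55.1, 50.3 and 48.8 CPM in SpdefKO_EC, against 36.6, 34.0, 40.3 and 34.9 CPM in WT_EC (log2 0.54 ± 0.10, edgeR adjusted p = 0.00235). The ranges of these 3 genes did not overlap. Cyp51, lanosterol demethylase, rose by log2 0.43 ± 0.08 (edgeR adjusted p = 0.00268), and Ebp, the sterol isomerase, by 0.39 ± 0.08 (0.00573). Fdft1, squalene synthase, rose by log2 0.37 ± 0.10 (edgeR adjusted p = 0.0155, and 0.0585 without SpdefKO_EC 4). Sc5d, a sterol desaturase, rose by log2 0.24 ± 0.07 (edgeR adjusted p = 0.0234), and the adjusted p was 0.0557 to 0.0942 without WT_EC 10, 12 or 17 or SpdefKO_EC 4 or 20, each left out alone. Dhcr7, which carries out a last reduction to cholesterol, showed log2 -0.01 ± 0.09 (edgeR adjusted p = 0.944) and averaged 92.2 ± 7.47 CPM in SpdefKO_EC and 93.1 ± 7.70 CPM in WT_EC. Lss, Tm7sf2 and Hsd17b7 did not pass either, at log2 0.24 ± 0.12, 0.24 ± 0.14 and 0.24 ± 0.09.

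Among the fatty acid genes, Scd1 had the largest change of all members. Scd1, a stearoyl-CoA desaturase that makes monounsaturated fatty acids, had 176, 149.6, 113 and 139 CPM in SpdefKO_EC, against 59.5, 46.3, 67.2 and 47.0 CPM in WT_EC (log2 1.39 ± 0.18, edgeR adjusted p = 0.000139). The lowest SpdefKO_EC library was well above the highest WT_EC library. Scd1 was also the only member past a test for a change of more than 1.5-fold. Fads1, the delta-5 desaturase of polyunsaturated fatty acids, had 41.4, 32.3, 37.7 and 24.1 CPM in SpdefKO_EC, against 22.6, 18.8, 25.5 and 19.7 CPM in WT_EC (log2 0.65 ± 0.17, edgeR adjusted p = 0.0181). SpdefKO_EC 20 lay below WT_EC 14, so these ranges overlapped, and the adjusted p was 0.0507 to 0.0811 without WT_EC 12 or 17 or SpdefKO_EC 4 or 8, each left out alone. Acaca, the acetyl-CoA carboxylase, showed log2 0.22 ± 0.07 (edgeR adjusted p = 0.0460), and 7 of the 8 libraries of these groups, each left out alone (WT_EC 10, 12, 14 and 17 and SpdefKO_EC 4, 8 and 20), took the adjusted p to 0.0625 to 0.160. Acly, ATP citrate lyase, had 510.3, 541, 447 and 475 CPM in SpdefKO_EC, against 505, 434, 611 and 476 CPM in WT_EC (log2 -0.04 ± 0.10, edgeR adjusted p = 0.844). Fasn, the fatty acid synthase, showed log2 0.19 ± 0.11 (edgeR adjusted p = 0.281), Elovl6 log2 0.16 ± 0.09 (0.290), Scd2 log2 0.29 ± 0.19 (0.329) and Fads2 log2 0.13 ± 0.14 (0.577).

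Scd1 and Scd2 lie 87.6 kb apart on chromosome 19, and Fads1 and Fads2 lie 81.1 kb apart on the same chromosome. Within a library, the ratio of Scd1 to Scd2 was 0.0662–0.101 in SpdefKO_EC and 0.0386–0.0460 in WT_EC, and 0.0535–0.0841 in SpdefKO_GC and 0.0387–0.0510 in WT_GC. The ratio of Fads1 to Fads2 was 0.150–0.223 in SpdefKO_EC and 0.121–0.142 in WT_EC, and 0.154–0.225 in SpdefKO_GC and 0.111–0.123 in WT_GC. All 4 contrasts of the log2 ratio had p = 0.0286 in a two-sided exact permutation test over libraries, which is the smallest p that 4 against 4 can give, and 0.0286 after adjustment over the 4. The ratio was higher in 4 of 4 SpdefKO libraries than in any WT library of the same fraction in each contrast. The pairs were chosen after the values were seen. Scd1 and Fads1 were by then called higher with the SpdefKO label in both fractions, and Scd2 and Fads2 in neither. The ratios therefore restate those calls, the adjustment does not cover the choice, and these p-values add no separate support. Scd1 has further paralogs, and reads shared among near-identical copies are not resolved in the counts.

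Of the regulators, Insig1 rose. Insig1 had 402, 463, 401 and 471 CPM in SpdefKO_EC, against 346, 349, 375 and 292 CPM in WT_EC (log2 0.35 ± 0.10, edgeR adjusted p = 0.0333). The ranges did not overlap, yet the adjusted p was 0.0520 to 0.105 without WT_EC 10, 12 or 17 or SpdefKO_EC 6 or 20, each left out alone. Srebf2 averaged 176 ± 8.52 CPM in SpdefKO_EC and 161 ± 18.1 CPM in WT_EC (log2 0.12 ± 0.10, edgeR adjusted p = 0.446), and Srebf1 averaged 140.2 ± 20.1 CPM in SpdefKO_EC and 154 ± 23.7 CPM in WT_EC (log2 -0.14 ± 0.13, edgeR adjusted p = 0.519). Insig2, Scap and the sterol carrier gene Stard4 had log2 0.04 ± 0.08, -0.06 ± 0.06 and 0.12 ± 0.08, with edgeR adjusted p = 0.770, 0.544 and 0.400.

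**Figure D2:**
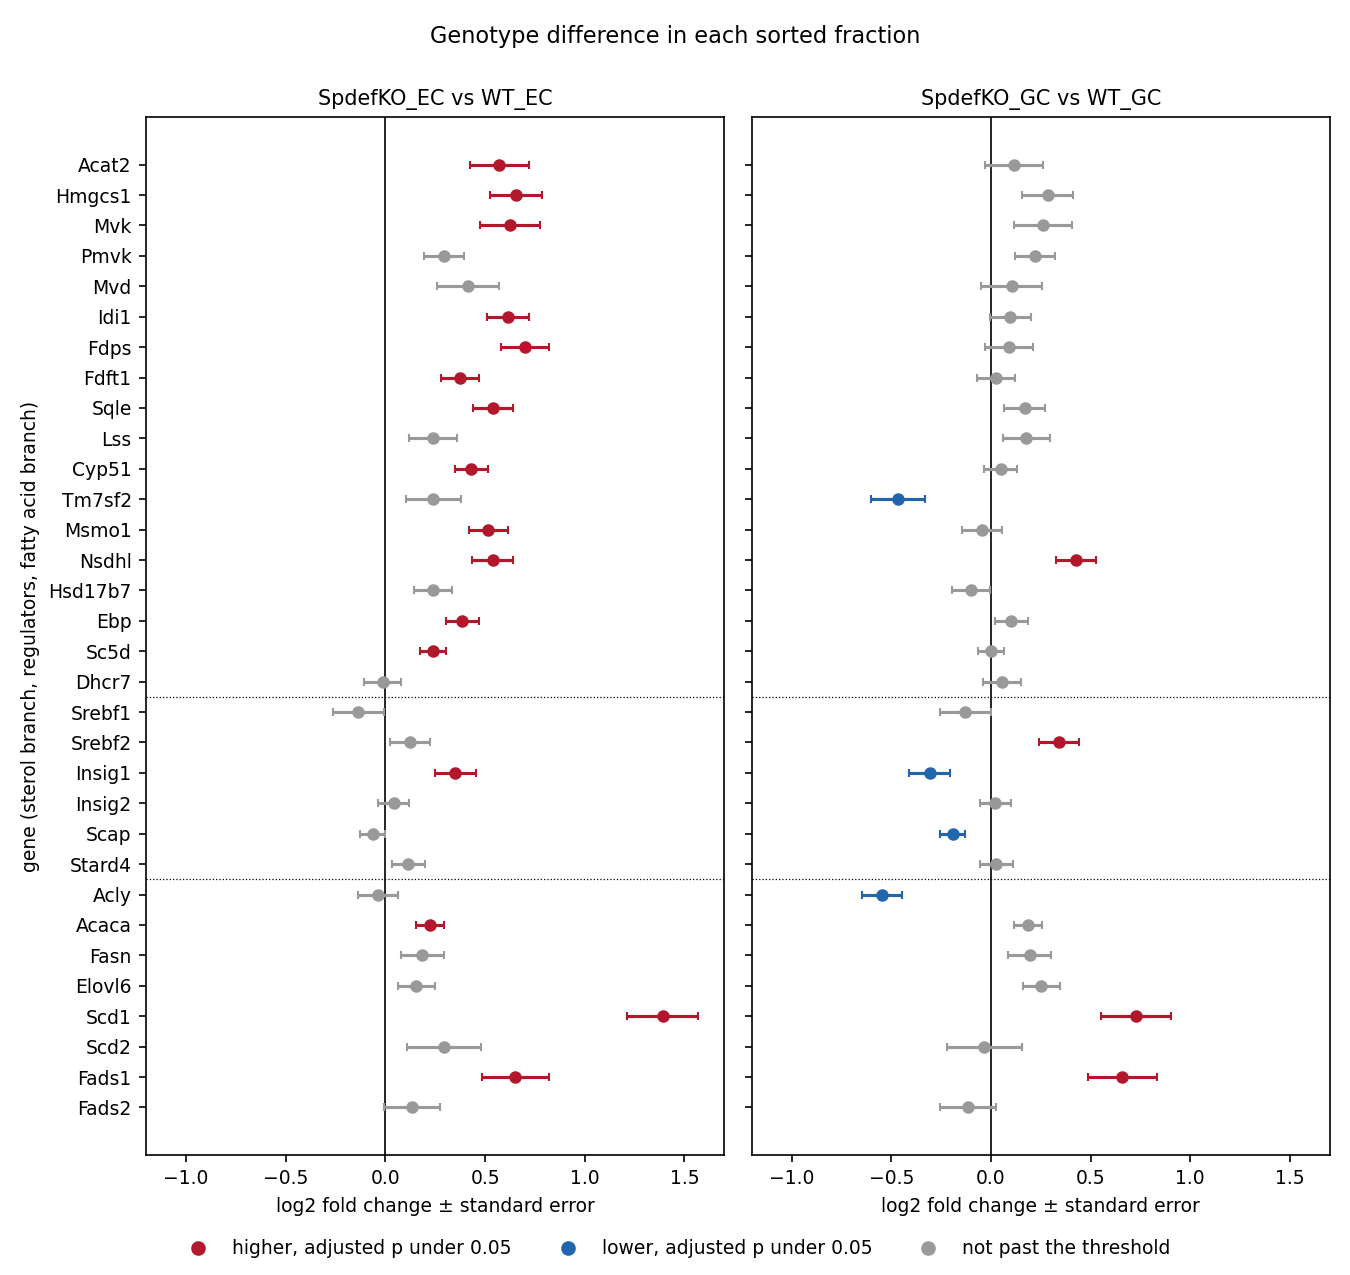
Log2 fold change with standard error for each of the 32 genes, SpdefKO_EC against WT_EC (left) and SpdefKO_GC against WT_GC (right); red and blue mark genes higher or lower at an edgeR adjusted p under 0.05, and grey marks the others. In the left panel 16 genes are red and 0 are blue, and in the right panel 4 are red and 4 are blue.

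Of 13 genes of sterol uptake and transport tested in the same cells, 0 were higher and 4 lower in SpdefKO_EC, 9 did not pass, and the median log2 change was -0.12. At an unadjusted edgeR p under 0.05, 1 of them was higher, and by DESeq2 and limma-voom 0 were. Of all genes tested, 6.09% were called higher and 6.54% lower in this contrast. Abcg1, a sterol exporter, had 4.53, 3.07, 4.03 and 2.61 CPM in SpdefKO_EC, against 21.6, 14.1, 17.5 and 34.1 CPM in WT_EC (log2 -2.59 ± 0.31, edgeR adjusted p = 8.43e-05). Abcg5, a subunit of the apical sterol exporter, had 1.72, 1.89, 2.34 and 0.938 CPM in SpdefKO_EC, against 8.05, 3.08, 6.45 and 14.2 CPM in WT_EC (log2 -2.16 ± 0.37, edgeR adjusted p = 0.00139), and its partner subunit Abcg8 fell by 1.85 on the log2 scale (SE 0.33, edgeR adjusted p = 0.00138). The ranges of these 3 genes did not overlap. Abcg1, Abcg5 and Abcg8 are on chromosome 17 with Spdef, and they lie 3.34 Mb, 56.94 Mb and 56.96 Mb from it. The fourth was Abca1, a cholesterol exporter of another chromosome (log2 -0.63 ± 0.18, edgeR adjusted p = 0.0257). SREBP processing and sterol degradation had 1 of 9 genes called, as higher, and other sterol and isoprenoid enzymes 1 higher and 1 lower of 8 tested, the lower one being Cyp27a1, a sterol hydroxylase (log2 -0.67 ± 0.20, edgeR adjusted p = 0.0353). Other fatty acid and glycerolipid synthesis had 4 higher and 1 lower of 24 tested, and its largest change was in Acsl4, an acyl-CoA synthetase (log2 0.70 ± 0.08, edgeR adjusted p = 3.31e-05). Abcg8 and Abca1 were named after their values were seen.

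Markers of other epithelial cells moved with the same contrast. Tuft cell markers fell for 4 of 5 tested, with a summed level of 8.75–15.9 CPM in SpdefKO_EC and 37.8–73.2 CPM in WT_EC. Enteroendocrine markers fell for 4 of 6, with 230.2–374 CPM in SpdefKO_EC and 518–687 CPM in WT_EC, and goblet markers for 4 of 8, with 506–550.4 CPM in SpdefKO_EC and 546–731 CPM in WT_EC. Absorptive markers had 2 higher and 1 lower of 8, with 8190.4–10304 CPM in SpdefKO_EC and 8797–9879 CPM in WT_EC. Proliferation markers had 1 higher of 8, with 954–1767 CPM in SpdefKO_EC and 789.9–1180 CPM in WT_EC. All 8 had a positive log2 change, with a median of 0.58, and 3 had an unadjusted edgeR p under 0.05. Immune and stromal sums stayed at or below 23.5 CPM in both groups, and the adipocyte markers Adipoq, Plin1, Lep, Cfd and Fabp4 were at 0 counts in all 8 libraries. All 7 adipocyte markers summed to 3.72–10.6 CPM in SpdefKO_EC and 5.22–6.46 CPM in WT_EC, which came from Cidec and Plin4. The part of the tuft, enteroendocrine, goblet and proliferating cells in the result was not tested.

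The same genotype contrast was then drawn in goblet cells. In SpdefKO_GC, 4 of 32 members were higher and 4 were lower than in WT_GC, where 10.4% of all genes tested were higher and 21.4% were called in either direction. The median log2 change was 0.10 for the sterol branch and 0.19 for the fatty acid branch, against 0.00 over all genes, and the sterol branch had 1 higher and 1 lower of 18. The libraries stood apart for 7 of 32 members, where 25.1% of all genes show no overlap.

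Acly had the lowest adjusted p of the members in goblet cells, and Scd1 the largest change. Acly had 530.2, 579, 477 and 483 CPM in SpdefKO_GC, against 719, 768, 839 and 697 CPM in WT_GC (log2 -0.55 ± 0.10, edgeR adjusted p = 0.000668). Every SpdefKO_GC library was below every WT_GC library. Scd1 had 137, 107, 79.7 and 93.9 CPM in SpdefKO_GC, against 61.4, 64.9, 75.2 and 50.7 CPM in WT_GC (log2 0.73 ± 0.18, edgeR adjusted p = 0.00786). Fads1 had 38.5, 25.6, 29.3 and 21.1 CPM in SpdefKO_GC, against 18.4, 18.1, 19.1 and 17.1 CPM in WT_GC (log2 0.66 ± 0.17, edgeR adjusted p = 0.0109). Both desaturase genes were higher in every SpdefKO_GC library than in any WT_GC library, though SpdefKO_GC 7 for Scd1 and SpdefKO_GC 19 for Fads1 came close. Nsdhl had 64.1, 64.4, 45.6 and 58.8 CPM in SpdefKO_GC, against 39.1, 45.7, 47.0 and 41.3 CPM in WT_GC (log2 0.43 ± 0.10, edgeR adjusted p = 0.00540), and SpdefKO_GC 7 lay within the WT_GC range. Scd1, Fads1 and Nsdhl were thus higher with the SpdefKO label in both fractions. These contrasts share no library, but the library pairs link them. The 3 genes make up 3 of the 4 members higher in goblet cells and 3 of the 16 higher in the mCherry-negative cells. The share of all genes tested that were higher in both fractions was not counted.

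Among the remaining calls, Srebf2 had 192, 266, 184 and 203 CPM in SpdefKO_GC, against 174, 167, 159.7 and 165 CPM in WT_GC (log2 0.34 ± 0.10, edgeR adjusted p = 0.0199, and 0.0562 without WT_GC 13 or 0.0565 without SpdefKO_GC 5). SpdefKO_GC 5 was the high library, and the groups stood apart. Insig1 had 408, 513, 401 and 523 CPM in SpdefKO_GC, against 579.7, 559, 643 and 501 CPM in WT_GC (log2 -0.31 ± 0.10, edgeR adjusted p = 0.0418). The ranges overlapped, and the adjusted p was 0.0706 to 0.138 without WT_GC 9, 11 or 13 or SpdefKO_GC 3 or 7, each left out alone. Tm7sf2, a sterol reductase, had 29.1, 29.5, 22.3 and 22.8 CPM in SpdefKO_GC, against 33.6, 34.1, 43.9 and 31.8 CPM in WT_GC (log2 -0.47 ± 0.14, edgeR adjusted p = 0.0195), and the adjusted p was 0.0680 to 0.0856 without WT_GC 13 or SpdefKO_GC 7 or 19, each left out alone. Scap averaged 78.4 ± 2.95 CPM in SpdefKO_GC and 89.5 ± 4.04 CPM in WT_GC (log2 -0.19 ± 0.06, edgeR adjusted p = 0.0389), and the adjusted p was 0.0801 to 0.109 without WT_GC 9, 11 or 13 or SpdefKO_GC 3, 7 or 19, each left out alone. Hmgcs1 (log2 0.28 ± 0.13, edgeR adjusted p = 0.129), Sqle (log2 0.17 ± 0.10, edgeR adjusted p = 0.255), Fasn (log2 0.19 ± 0.11, edgeR adjusted p = 0.219), Scd2 (log2 -0.03 ± 0.19, edgeR adjusted p = 0.926) and Srebf1 (log2 -0.13 ± 0.13, edgeR adjusted p = 0.514) did not pass. The mevalonate pathway had 0 of 7 called, with log2 changes of 0.09–0.28, all positive. At an unadjusted edgeR p under 0.05, 2 of the 7 were higher, and by DESeq2 and limma-voom 0 were.

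Around the members in goblet cells, 10.4% of all genes tested were higher and 21.4% were called in either direction. Sterol uptake and transport had 1 higher and 2 lower of 13 tested. The higher one was Abcg1, with 29.5, 21.6, 34.5 and 20.2 CPM in SpdefKO_GC, against 10.7, 5.24, 10.5 and 9.43 CPM in WT_GC (log2 1.57 ± 0.28, edgeR adjusted p = 0.000877). Its direction was the reverse of that in the mCherry-negative cells. Other fatty acid and glycerolipid synthesis had 3 higher and 3 lower of 24 tested. Acacb, the mitochondrial acetyl-CoA carboxylase, averaged 5.88 ± 0.542 CPM in SpdefKO_GC and 12.6 ± 1.80 CPM in WT_GC (log2 -1.10 ± 0.14, edgeR adjusted p = 1.32e-05), and Me1, malic enzyme, a source of NADPH, averaged 3.68 ± 0.647 CPM in SpdefKO_GC and 2.14 ± 0.542 CPM in WT_GC (log2 0.79 ± 0.23, edgeR adjusted p = 0.0194, and 0.0528 to 0.0661 without WT_GC 9 or 11 or SpdefKO_GC 3, each left out alone). Cyp27a1 was lower, at 11.2 ± 2.65 CPM in SpdefKO_GC and 18.5 ± 2.87 CPM in WT_GC (log2 -0.73 ± 0.20, edgeR adjusted p = 0.0142, and 0.0522 without WT_GC 13). SREBP processing and sterol degradation had 1 of 9 called, as lower, and other sterol and isoprenoid enzymes 1 of 8 tested, Cyp27a1. Beside these, enteroendocrine markers were higher for 6 of 6, with a summed level of 189–281 CPM in SpdefKO_GC and 79.4–111 CPM in WT_GC, and absorptive markers for 6 of 8, with 854–1071 CPM in SpdefKO_GC and 457–583 CPM in WT_GC. Proliferation markers summed to 1251–2060 CPM in SpdefKO_GC and 932–1292 CPM in WT_GC, with 1 higher of 8. Their log2 change was positive for 7 of 8, with a median of 0.28. Goblet markers had 2 higher and 1 lower of 8, with 53027–65394 CPM in SpdefKO_GC and 47828–54744 CPM in WT_GC. Immune markers had 2 higher of 5 tested, at sums of at most 13.7 CPM. Of 5 tuft markers tested, 0 were called, and 1 was higher at an unadjusted edgeR p under 0.05. The part of these cells in the result was not tested.

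Whether the genotype difference itself differed between the sorted fractions was tested by an interaction term, the genotype log2 difference in GC minus that in EC. Of 32 members, 0 had a positive and 7 a negative interaction past the threshold, where 4.88% of all genes tested were positive and 4.65% negative. DESeq2, limma-voom and an unadjusted edgeR p under 0.05 also gave 0 positive. They were 5 sterol genes, 1 regulator and 1 fatty acid gene. Insig1 had the lowest p, with an interaction of -0.66 ± 0.15 (edgeR adjusted p = 0.00818), from log2 -0.31 ± 0.10 in goblet cells and 0.35 ± 0.10 in the mCherry-negative cells. Msmo1 had 310.2, 352, 275 and 347 CPM in SpdefKO_GC and 316, 328, 386 and 295 CPM in WT_GC, where the ranges overlapped, while the mCherry-negative groups stood apart (interaction -0.56 ± 0.14, edgeR adjusted p = 0.0158). Tm7sf2 had an interaction of -0.71 ± 0.19 (0.0264), Fdps of -0.61 ± 0.17 (0.0300), Acly of -0.51 ± 0.14 (0.0265), Idi1 of -0.52 ± 0.15 (0.0308) and Cyp51 of -0.38 ± 0.12 (0.0485), with edgeR adjusted p in parentheses. Insig1 and Msmo1 passed with every single library left out and under every scaling. The count of 7 fell to 2 without SpdefKO_EC 4, SpdefKO_GC 7, WT_EC 10, WT_EC 17 or WT_GC 13, and to 3 without SpdefKO_GC 19, WT_EC 12 or WT_GC 11, each left out alone. Without the pairs, Hmgcs1 (log2 -0.37 ± 0.18, edgeR adjusted p = 0.226), Sqle (log2 -0.37 ± 0.14, edgeR adjusted p = 0.115), Fasn (log2 0.01 ± 0.15, edgeR adjusted p = 0.982), Scd1 (log2 -0.67 ± 0.25, edgeR adjusted p = 0.106), Scd2 (log2 -0.33 ± 0.26, edgeR adjusted p = 0.499), Srebf1 (log2 0.01 ± 0.18, edgeR adjusted p = 0.986) and Srebf2 (log2 0.22 ± 0.14, edgeR adjusted p = 0.376) did not pass. 

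With the library pairs as a block, 15 of 32 members had a negative and 0 a positive interaction, where 25.8% of all genes tested were called in either direction and 12.8% were positive. An unadjusted p under 0.05 also gave 0 positive. The 15 were the same 7 and also Acat2, Mvk, Fdft1, Sqle, Ebp, Sc5d, Scd1 and Scd2, so that 11 of 18 sterol genes, 3 of 8 fatty acid genes and 1 of 6 regulators had a lower genotype log2 change in goblet cells than in the mCherry-negative cells. Scd1 had an interaction of -0.68 ± 0.09 (edgeR adjusted p = 1.16e-05), Scd2 of -0.35 ± 0.10 (0.0144), Acat2 of -0.46 ± 0.12 (0.00994) and Sqle of -0.35 ± 0.11 (0.0274). Fads1, whose genotype call stood in both fractions, showed log2 0.01 ± 0.24, edgeR adjusted p = 0.990 without the pairs and log2 0.00 ± 0.11, edgeR adjusted p = 0.986 with them. Cell type markers moved in the same contrast. The interaction was positive past the threshold, without the pairs, for 6 of 6 enteroendocrine markers with a median log2 value of 2.47, for 4 of 5 tuft markers with 1.83, for 4 of 8 goblet markers with 0.73 and for 3 of 8 absorptive markers with 0.91. Their part in the members' interaction was not tested.

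**Figure D3:**
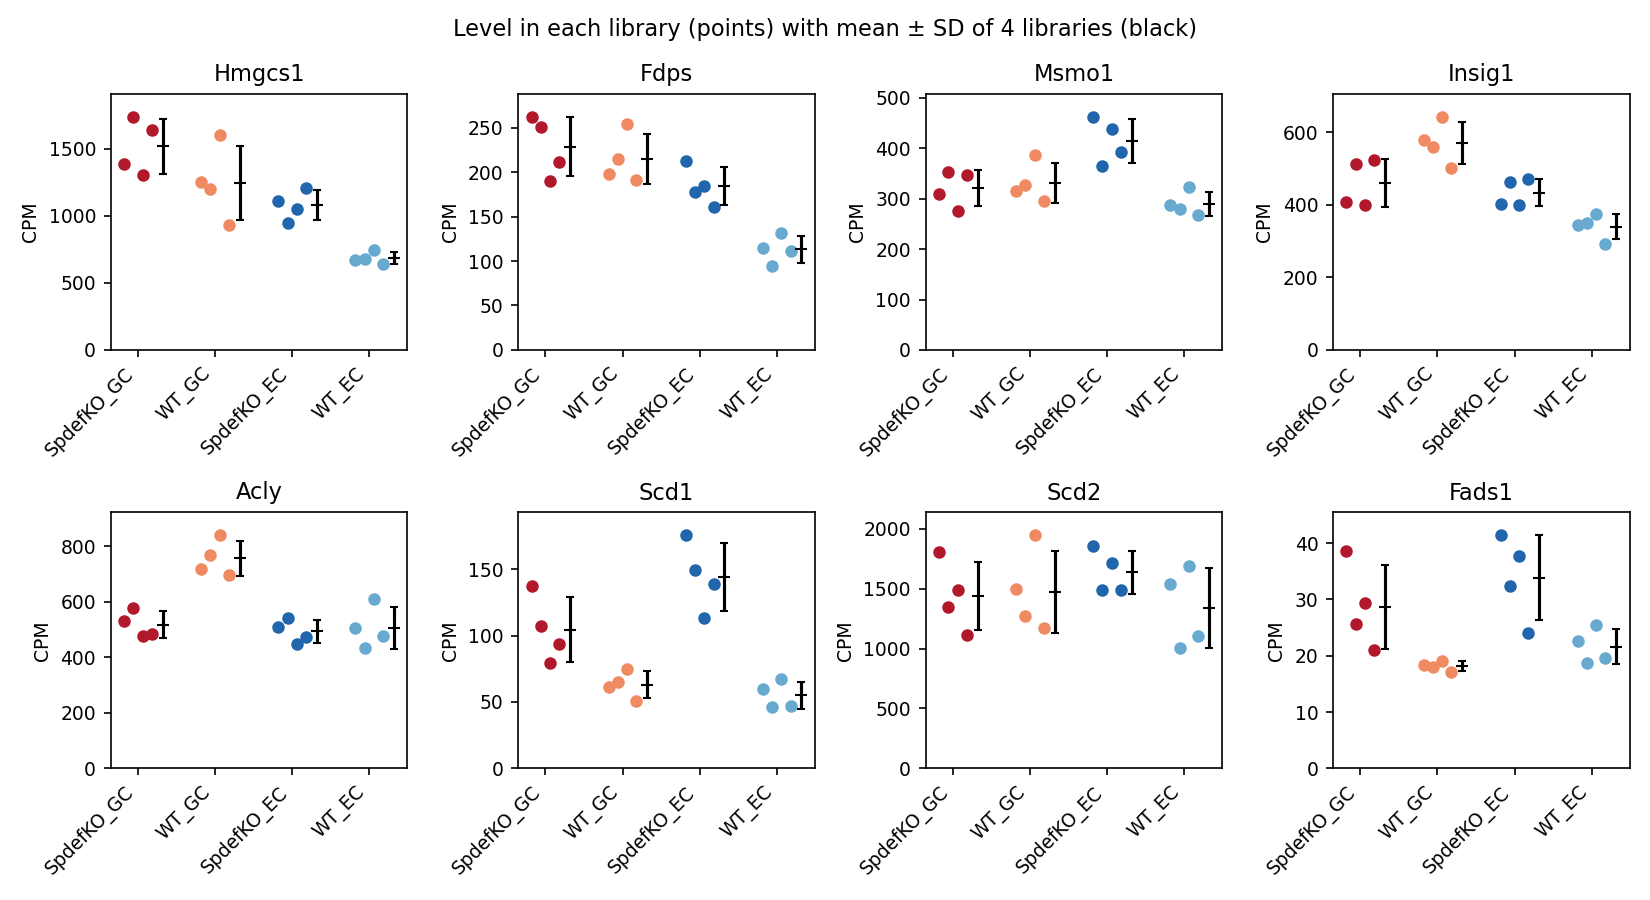
CPM of 8 genes in each library (points) with mean ± SD of 4 libraries (black), by group. Acly stands highest in WT_GC, Insig1 is above its genotype pair in WT_GC and below it in WT_EC, and Scd1 and Fads1 have their higher means in the SpdefKO groups of both fractions.

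Goblet cells were next set against the mCherry-negative cells within each genotype. Most genes differ between these fractions, so the members' counts have to be read against a high background. In WT_GC, 15 of 32 members were higher and 2 lower than in WT_EC, where 31.0% of all genes tested were higher and 30.1% lower. The sterol branch had 12 higher and 1 lower of 18 with a median log2 change of 0.51, the fatty acid branch 2 higher and 1 lower of 8 with a median of 0.05, and all genes tested had a median of 0.05. The sterol median was 0.29 with the regulators placed in a branch, and the fatty acid median was -0.03 with Acly left out. With the library pairs as a block 19 members were higher and 3 lower, where 37.5% of all genes tested were higher and 33.9% lower. The libraries stood apart for 14 of 32 members, where 59.4% of all genes show no overlap. Of the markers of the sort, 7 of 8 goblet markers were higher in WT_GC and 1 was lower (log2 -0.62). All 8 absorptive and all 6 enteroendocrine markers were lower, and 1 of 5 tuft markers was lower. Enteroendocrine markers summed to 79.4–111 CPM in WT_GC and 518–687 CPM in WT_EC, and tuft markers to 36.3–48.3 CPM in WT_GC and 37.8–73.2 CPM in WT_EC. Their part in the result was not tested.

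In the mevalonate pathway, 6 of 7 members were higher in WT_GC. Fdps had 198, 215, 254 and 191 CPM in WT_GC, against 115, 94.7, 132 and 111 CPM in WT_EC (log2 0.92 ± 0.12, edgeR adjusted p = 2.60e-06). Hmgcs1 had 1251, 1197, 1601 and 932 CPM in WT_GC, against 673, 677, 747 and 642 CPM in WT_EC (log2 0.86 ± 0.13, edgeR adjusted p = 1.45e-05). Idi1 had 80.0, 89.8, 106 and 77.9 CPM in WT_GC, against 45.3, 50.5, 55.4 and 43.5 CPM in WT_EC (log2 0.86 ± 0.10, edgeR adjusted p = 7.29e-07). None of these ranges overlapped, and WT_GC 13 was the highest library for each gene. Mvk rose by log2 0.78 ± 0.15 (edgeR adjusted p = 0.000182), Acat2 by 0.63 ± 0.15 (0.00129) and Mvd, the decarboxylase that ends the mevalonate steps, by 0.53 ± 0.15 (0.00679). Pmvk did not pass (log2 0.11 ± 0.10, edgeR adjusted p = 0.364).

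Past squalene the members split. Lss, lanosterol synthase, had 126, 142, 179.7 and 123 CPM in WT_GC, against 85.3, 78.3, 74.8 and 71.4 CPM in WT_EC (log2 0.88 ± 0.12, edgeR adjusted p = 3.86e-06). Cyp51 rose by log2 0.68 ± 0.08 (edgeR adjusted p = 8.75e-07), Tm7sf2 by 0.59 ± 0.14 (0.00103), Fdft1 by 0.49 ± 0.10 (0.000211) and Ebp by 0.29 ± 0.08 (0.00534). Nsdhl rose by log2 0.25 ± 0.10 (edgeR adjusted p = 0.0432), and the adjusted p was 0.0637 to 0.150 without WT_EC 10, 12 or 17 or WT_GC 11, 13 or 18, each left out alone. Dhcr7 went the other way, with 55.9, 52.8, 58.2 and 53.8 CPM in WT_GC, against 100.1, 83.3, 98.3 and 90.7 CPM in WT_EC (log2 -0.76 ± 0.09, edgeR adjusted p = 9.54e-07), and its groups stood apart. Sqle (log2 0.18 ± 0.10, edgeR adjusted p = 0.143), Msmo1 (log2 0.19 ± 0.10, edgeR adjusted p = 0.100), Sc5d (log2 -0.07 ± 0.07, edgeR adjusted p = 0.394) and Hsd17b7 (log2 -0.00 ± 0.09, edgeR adjusted p = 0.971) did not pass, and of these Msmo1 passed with the library pairs as a block (log2 0.19 ± 0.08, edgeR adjusted p = 0.0472).

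Of the fatty acid members, Acly, Fasn and Elovl6 passed. Acly had 719, 768, 839 and 697 CPM in WT_GC, against 505, 434, 611 and 476 CPM in WT_EC (log2 0.58 ± 0.10, edgeR adjusted p = 4.95e-05), and Fasn rose by log2 0.44 ± 0.11 (edgeR adjusted p = 0.00180). Elovl6, the elongase of palmitate, had 83.5, 70.5, 91.3 and 82.8 CPM in WT_GC, against 116, 121, 103 and 124 CPM in WT_EC (log2 -0.50 ± 0.09, edgeR adjusted p = 0.000131). Acly and Elovl6 stood apart in opposite directions. None of the 4 desaturases was called without the library pairs, nor had an unadjusted edgeR p under 0.05: Scd1 (log2 0.20 ± 0.18, edgeR adjusted p = 0.349), Scd2 (log2 0.14 ± 0.19, edgeR adjusted p = 0.533), Fads1 (log2 -0.25 ± 0.17, edgeR adjusted p = 0.220) and Fads2 (log2 -0.06 ± 0.14, edgeR adjusted p = 0.718) did not pass by the adjusted p. With the pairs as a block, Scd1 was higher (log2 0.20 ± 0.07, edgeR adjusted p = 0.00987) and Fads1 lower (log2 -0.25 ± 0.08, edgeR adjusted p = 0.00803) in WT_GC, each in 4 of 4 pairs. Insig1 had 579.7, 559, 643 and 501 CPM in WT_GC, against 346, 349, 375 and 292 CPM in WT_EC (log2 0.75 ± 0.10, edgeR adjusted p = 4.84e-06), and it was the only regulator called without the pairs, where Srebf1 (log2 0.29 ± 0.13, edgeR adjusted p = 0.0585) and Srebf2 (log2 0.05 ± 0.10, edgeR adjusted p = 0.714) did not pass. With them, Srebf1 (log2 0.29 ± 0.06, edgeR adjusted p = 6.82e-05) and Stard4 (log2 0.19 ± 0.06, edgeR adjusted p = 0.00432) were higher too.

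In Spdef-/- mice the same contrast gave 8 members higher and 6 lower in SpdefKO_GC than in SpdefKO_EC, where 28.0% of all genes tested were higher and 28.4% lower. With upper-quartile factors or with no composition factors the split was 12 higher and 5 lower, and these scalings shifted the median of all genes in this contrast by 0.11 and 0.13 on the log2 scale. The sterol branch had 6 higher and 4 lower of 18 and the fatty acid branch 1 higher and 2 lower of 8, with median log2 changes of 0.14 and -0.21, against 0.03 over all genes. The libraries stood apart for 11 of 32 members, where 48.1% of all genes show no overlap. With the library pairs as a block, 9 members were higher and 11 lower, where 34.4% of all genes tested were higher and 33.0% lower. Of the markers, 7 of 8 goblet and all 5 tuft markers tested were higher in SpdefKO_GC, and all 8 absorptive and 2 of 6 enteroendocrine markers were lower. Tuft markers summed to 19.5–44.9 CPM in SpdefKO_GC and 8.75–15.9 CPM in SpdefKO_EC, and enteroendocrine markers to 189–281 CPM in SpdefKO_GC and 230.2–374 CPM in SpdefKO_EC. Their part in the result was not tested.

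Lss had 167, 194, 137 and 148 CPM in SpdefKO_GC, against 104, 83.8, 91.6 and 87.1 CPM in SpdefKO_EC (log2 0.82 ± 0.12, edgeR adjusted p = 9.94e-06). Hmgcs1 had 1388, 1736, 1301 and 1642 CPM in SpdefKO_GC, against 1109.6, 946, 1053 and 1207 CPM in SpdefKO_EC (log2 0.49 ± 0.13, edgeR adjusted p = 0.00344). Both stood apart, and Idi1 (log2 0.34 ± 0.10, edgeR adjusted p = 0.00765), Fasn (log2 0.45 ± 0.11, edgeR adjusted p = 0.00171) and Cyp51 (log2 0.30 ± 0.08, edgeR adjusted p = 0.00446) were higher as well. Mvk (log2 0.42 ± 0.15, edgeR adjusted p = 0.0201) had an adjusted p of 0.0681 to 0.0918 without SpdefKO_EC 8 or SpdefKO_GC 5, each left out alone. Fdps (log2 0.31 ± 0.12, edgeR adjusted p = 0.0327) had 0.0582 to 0.131 without SpdefKO_EC 6, 8 or 20 or SpdefKO_GC 3 or 5, and Srebf2 (log2 0.26 ± 0.10, edgeR adjusted p = 0.0308) had 0.0908 to 0.174 without SpdefKO_EC 20 or SpdefKO_GC 5. On the lower side, Dhcr7 had 64.9, 63.7, 48.5 and 52.1 CPM in SpdefKO_GC, against 90.4, 103, 91.0 and 84.8 CPM in SpdefKO_EC (log2 -0.69 ± 0.09, edgeR adjusted p = 3.54e-06), with no overlap. Elovl6 (log2 -0.40 ± 0.09, edgeR adjusted p = 0.00113), Msmo1 (log2 -0.37 ± 0.10, edgeR adjusted p = 0.00366), Hsd17b7, which reduces the sterol ketone (log2 -0.34 ± 0.09, edgeR adjusted p = 0.00438), and Sc5d (log2 -0.31 ± 0.07, edgeR adjusted p = 0.000582) were lower too. Scd1 (log2 -0.47 ± 0.17, edgeR adjusted p = 0.0303) had an adjusted p of 0.0523 to 0.101 without SpdefKO_EC 4 or 6 or SpdefKO_GC 5, 7 or 19, each left out alone. Without SpdefKO_GC 5 the count of higher members was 5. With the library pairs as a block the adjusted p was 0.000371 for Mvk, 0.000757 for Fdps, 0.00658 for Srebf2 and 4.30e-07 for Scd1, and Scd1 was lower in SpdefKO_GC in 4 of 4 pairs. Sqle (log2 -0.19 ± 0.10, edgeR adjusted p = 0.111), Insig1 (log2 0.09 ± 0.10, edgeR adjusted p = 0.495), Srebf1 (log2 0.30 ± 0.13, edgeR adjusted p = 0.0567) and Scd2 (log2 -0.18 ± 0.19, edgeR adjusted p = 0.422) did not pass without the pairs. With them, Srebf1 was higher (log2 0.30 ± 0.06, edgeR adjusted p = 7.69e-05), and Fads2 (log2 -0.32 ± 0.07, edgeR adjusted p = 0.000733), Fads1 (log2 -0.25 ± 0.07, edgeR adjusted p = 0.00502), Scd2 (log2 -0.20 ± 0.07, edgeR adjusted p = 0.0173), Scap (log2 -0.14 ± 0.05, edgeR adjusted p = 0.0189) and Sqle (log2 -0.18 ± 0.08, edgeR adjusted p = 0.0466) were lower. All 4 desaturases were thus lower in SpdefKO_GC than in SpdefKO_EC in that fit. Called without the pairs in the same direction between fractions in both genotypes, in contrasts that share no library, were 9 members: Hmgcs1, Mvk, Idi1, Fdps, Lss, Cyp51 and Fasn as higher in goblet cells, and Dhcr7 and Elovl6 as lower. Srebf1 (higher) and Fads1 (lower) joined them with the pairs as a block, while Scd1 and Msmo1 were then higher in goblet cells of reporter mice with intact Spdef and lower in those of Spdef-/- mice. The share of all genes tested with the same direction in both genotypes was not counted, so the 9 members have no background beside them.

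**Figure D4:**
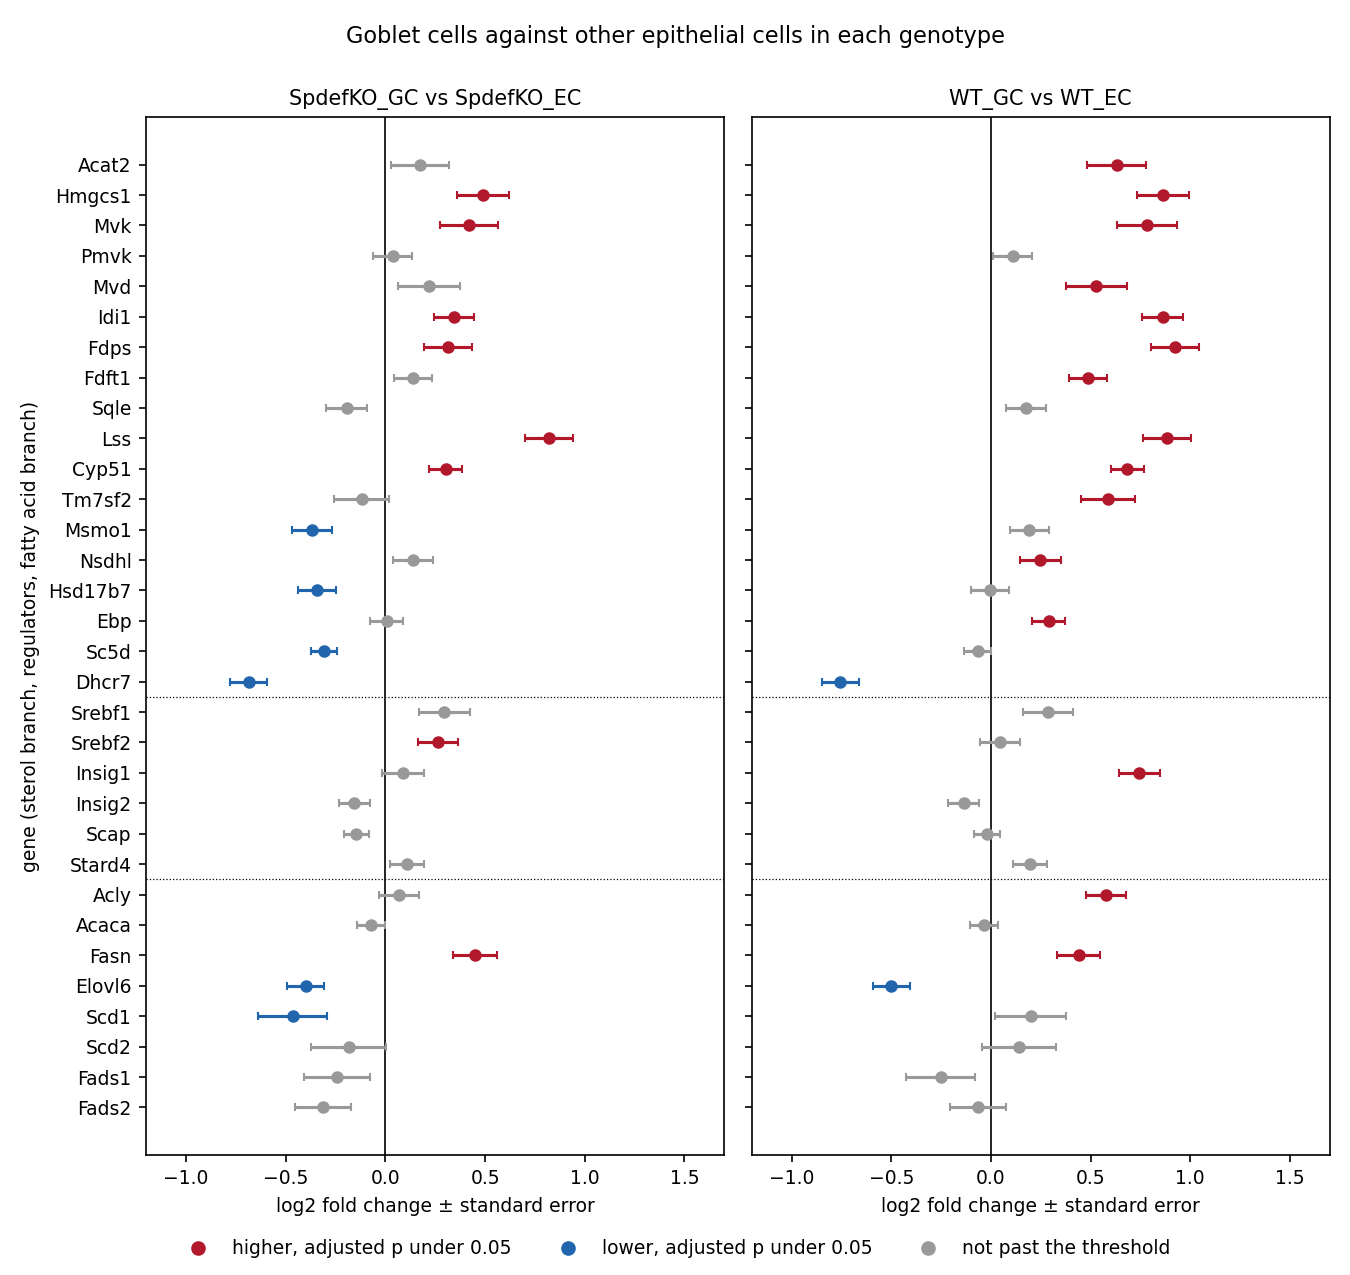
Log2 fold change with standard error for each of the 32 genes, SpdefKO_GC against SpdefKO_EC (left) and WT_GC against WT_EC (right), with colours for higher (red), lower (blue) and not past the threshold (grey), in the fit without library pairs. The right panel has 15 red and 2 blue genes, the left panel 8 red and 6 blue, and Dhcr7 is blue in both.

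The pathway genes outside the set also differed between fractions. Dgat2, a triglyceride synthesis enzyme, averaged 13.3 ± 1.00 CPM in SpdefKO_GC against 54.4 ± 13.9 CPM in SpdefKO_EC (log2 -2.04 ± 0.15, edgeR adjusted p = 9.96e-10), and 13.2 ± 1.45 CPM in WT_GC against 58.4 ± 7.43 CPM in WT_EC (log2 -2.14 ± 0.15, edgeR adjusted p = 4.19e-10). Npc1, which exports cholesterol from lysosomes, averaged 45.9 ± 2.19 CPM in SpdefKO_GC against 107 ± 12.6 CPM in SpdefKO_EC (log2 -1.22 ± 0.08, edgeR adjusted p = 1.39e-10), and 43.8 ± 1.05 CPM in WT_GC against 109 ± 7.39 CPM in WT_EC (log2 -1.31 ± 0.08, edgeR adjusted p = 4.22e-11). Both were lower in goblet cells of both genotypes. Abcg1 was higher in SpdefKO_GC than in SpdefKO_EC (log2 2.87 ± 0.31, edgeR adjusted p = 6.54e-07), and Nr1h3, which encodes the sterol-sensing receptor LXR-alpha, was lower (log2 -1.39 ± 0.15, edgeR adjusted p = 2.62e-07). Abcg5 (log2 -1.88 ± 0.36, edgeR adjusted p = 0.000227) and Me1 (log2 -1.48 ± 0.22, edgeR adjusted p = 1.02e-05) were lower in WT_GC than in WT_EC. Of all genes tested, 31.0% were higher and 30.1% lower in WT_GC than in WT_EC. In SpdefKO_GC against SpdefKO_EC these shares were 28.0% and 28.4%. Sterol uptake and transport had 4 higher and 7 lower of 13 tested in WT_GC and 3 higher and 4 lower in SpdefKO_GC. Other fatty acid and glycerolipid synthesis had 11 higher and 8 lower of 24 in WT_GC and 7 higher and 10 lower in SpdefKO_GC. SREBP processing and sterol degradation had 5 higher and 1 lower of 9 in WT_GC and 4 higher and 1 lower in SpdefKO_GC, and other sterol and isoprenoid enzymes 2 higher and 1 lower of 8 in WT_GC and 1 higher and 2 lower in SpdefKO_GC.

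Summed over its members, the sterol branch had 3855 ± 421 CPM in SpdefKO_GC and 3472 ± 517 CPM in WT_GC, with 3344 ± 236 CPM in SpdefKO_EC and 2365 ± 134 CPM in WT_EC (SD, n = 4 each). The WT_EC libraries, at 2251–2556 CPM, lay below every library of the other groups, which began at 2947 CPM. The fatty acid branch had 3075 ± 397 CPM in SpdefKO_GC and 3198 ± 494 CPM in WT_GC, with 3197 ± 257 CPM in SpdefKO_EC and 2706 ± 469 CPM in WT_EC, and all 4 ranges overlapped. The ratio of the sterol sum to the fatty acid sum was 1.07–1.54 in SpdefKO_GC and 1.06–1.13 in WT_GC, against 0.978–1.17 in SpdefKO_EC and 0.788–1.03 in WT_EC. These sums are led by Hmgcs1 and by Scd2, and no test was run on them.

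**Figure D5:**
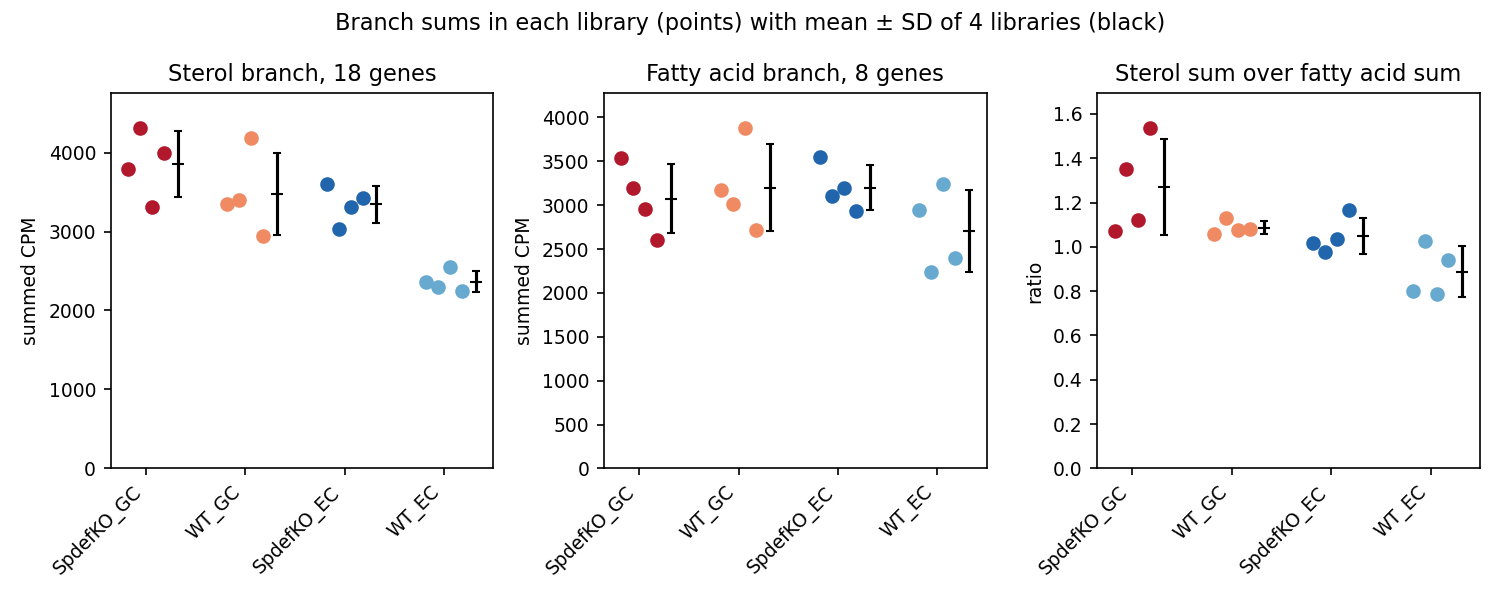
Summed CPM of the 18 sterol genes and of the 8 fatty acid genes, and their ratio, in each library (points) with mean ± SD of 4 libraries (black). The sterol sums of WT_EC stay at 2251–2556 CPM, under all other libraries, while the fatty acid sums of the groups overlap.

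The members called in none of the 5 tests without the library pairs were Pmvk, Srebf1, Insig2, Stard4, Scd2 and Fads2, and with the pairs as a block Pmvk and Insig2 remained. Insig2, the second INSIG gene, had 24.5–26.0 CPM in SpdefKO_GC and 23.5–27.8 in WT_GC, with 26.1–31.6 in SpdefKO_EC and 27.1–28.9 in WT_EC. Stard4 had 252–279 CPM in SpdefKO_GC and 233–273 in WT_GC, with 213–277 in SpdefKO_EC and 208–235 in WT_EC. Scd2 had 1116–1802 CPM in SpdefKO_GC and 1170.4–1945 in WT_GC, with 1488–1853 in SpdefKO_EC and 1006–1691 in WT_EC, a spread within groups wider than the differences between their means.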

How the data were processed

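The 32 members and the gene lists beside them were chosen with earlier results of these data known. Per the labels' protocols, total RNA of sorted cells was made into TruSeq Stranded Total RNA libraries with Ribo-Zero Gold and sequenced paired-end. The values deposited by the authors and used here are raw counts of reads, with genes as symbols and each library in its own column. HTSeq 0.6.1p1, STAR 2.4.0f, FastQC 0.11.2, DESeq2 1.14 and the build mm10 are listed, without their roles, in the submitters' processing notes. Gene annotation, strand setting and filters were not given in the sources used here. Size-factor-scaled values, also deposited, were not used.

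Rows that name no gene (3 of them) were left out, and library sizes were summed over the 21442 gene rows. Counts were fitted with edgeR 4.0.16 (R 4.3.3): filterByExpr by group, TMM factors (0.944–1.06), 1 coefficient for each of the 4 groups over all 16 libraries, and the robust quasi-likelihood test. The biological coefficient of variation was 11.7%. P-values were adjusted by Benjamini-Hochberg over the 12915 genes tested, with a threshold of 0.05. The standard error was taken as the absolute log2 change over the square root of F and is approximate. All members were accounted for: those past the threshold are named in each comparison, with Hmgcs1, Sqle, Srebf1, Srebf2, Insig1, Fasn, Scd1 and Scd2 in any case, and of the other pathway genes the 4 with the largest change past the threshold and a group mean of at least 5 CPM. Levels per kilobase used the union of GENCODE vM21 exons (GRCm38), and promoters came from RefSeq (GRCm38.p6). Alternatives were other scalings, no filter, DESeq2 1.42.0, limma-voom (limma 3.58.1), fits of the compared groups alone, a 1.5-fold bound and each library left out. The ratios of neighbouring desaturase genes were compared after seeing the data. Each goblet cell library was also paired with the mCherry-negative library of adjacent number and the same genotype (3 and 4, 5 and 6, 7 and 8, 9 and 10, 11 and 12, 13 and 14, 18 and 17, 19 and 20), a pairing read from the numbers in the titles after seeing the data. Over all tested genes, log2 deviations from the group means correlated at 0.12 to 0.61 in the 8 pairs and at -0.40 to 0.25 in the 24 other combinations, and each of the 16 libraries correlated best with its adjacent one.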

Additional observations from a re-analysis of the deposited data

Results flagged for a closer look

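In 4 of the 128 sets of 4 libraries examined (each member in each group), 1 library stood far from the other 3 by Dixon's ratio, the gap to the nearest library over the whole range. Chance alone gives about 1 such set in 20. Acat2 had a ratio of 0.863 in SpdefKO_EC, where library 4 was at 65.3 CPM and the others at 52.3–54.1 CPM. Srebf2 had a ratio of 0.834 in SpdefKO_EC, where library 20 was at 163 CPM and the others at 179–182 CPM. In SpdefKO_GC, Insig2 had a ratio of 0.910, with library 19 at 24.5 CPM and the others at 25.9–26.0 CPM, and Stard4 a ratio of 0.966, with library 5 at 279 CPM and the others at 252.0–253 CPM.

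The genotype difference itself differed between goblet cells and the mCherry-negative cells for 7 members in the fit without library pairs, and for 15 with the pairs as a block. Over all genes tested, 4.88% had a positive and 4.65% a negative interaction without the block. With it, 25.8% were called in either direction. The interaction, taken as the goblet cell log2 change with genotype minus the mCherry-negative one, was -0.71 for Tm7sf2, -0.66 for Insig1, -0.61 for Fdps, -0.56 for Msmo1, -0.52 for Idi1, -0.51 for Acly and -0.38 for Cyp51. Msmo1, Fdps, Idi1 and Cyp51 were higher in SpdefKO_EC than in WT_EC and did not pass in goblet cells. Acly and Tm7sf2 were lower in SpdefKO_GC than in WT_GC and did not pass in the mCherry-negative cells. Insig1 was called in both fractions with opposite signs.

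Of the other pathway genes (9, 8, 13 and 24 tested by list), 10 had an interaction past the threshold, 3 of them positive and 7 negative. Of all genes tested, 4.88% were positive and 4.65% negative. The 4 largest of the 10 with a group mean of at least 5 CPM are given. The interaction was 4.17 ± 0.42 for Abcg1 (edgeR adjusted p = 1.15e-05), which was lower in SpdefKO_EC than in WT_EC and higher in SpdefKO_GC than in WT_GC. It was 2.21 ± 0.55 for Abcg5 (edgeR adjusted p = 0.0178), with 2.22 ± 0.127 CPM in SpdefKO_GC and 2.22 ± 0.920 CPM in WT_GC, and 1.72 ± 0.584 CPM in SpdefKO_EC and 7.93 ± 4.64 CPM in WT_EC (SD, n = 4 each). It was -0.74 ± 0.19 for Acacb (edgeR adjusted p = 0.0179, and 0.0527 without WT_GC 11). Acsl3, an acyl-CoA synthetase, had an interaction of -0.61 ± 0.15 (edgeR adjusted p = 0.0161), with 359 ± 34.5 CPM in SpdefKO_GC and 505 ± 88.9 CPM in WT_GC, and 763 ± 80.3 CPM in SpdefKO_EC and 701 ± 39.9 CPM in WT_EC.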

How the results depend on the processing

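No member past the threshold changed sign under any alternative run. The groups share no replicate numbers, and no paired fit of a genotype contrast was possible because each library pair lies within 1 genotype. With adjacent library numbers as a block, an alternative chosen after seeing the data, members with a negative interaction numbered 15 in place of 7. Members lower in SpdefKO_GC against SpdefKO_EC numbered 11 in place of 6, and no member lost its call. The block also raised the calls over all genes tested. The share lower in SpdefKO_GC against SpdefKO_EC was 33.0% in place of 28.4%. In the interaction, 25.8% were called in either direction with the block, where 4.88% were positive and 4.65% negative without it. Asking for a change of more than 1.5-fold left 1 member higher of 16 in SpdefKO_EC against WT_EC, 4 of 15 higher and 1 of 2 lower in WT_GC against WT_EC, 1 of 8 higher and 0 of 6 lower in SpdefKO_GC against SpdefKO_EC, 0 of 4 higher and 0 of 4 lower in SpdefKO_GC against WT_GC, and 0 of 7 in the interaction. Fitting only the groups compared left 2 of 4 lower in SpdefKO_GC against WT_GC, and leaving out composition factors left 4 of 7 in the interaction. With upper-quartile factors or with no composition factors, members higher in SpdefKO_EC against WT_EC numbered 13 in place of 16. The causes were not tested, other than the stricter question of the fold bound. With each library left out in turn, the counts were 11–17 higher in SpdefKO_EC against WT_EC, 3–5 higher and 1–4 lower in SpdefKO_GC against WT_GC, 14–15 higher and 2 lower in WT_GC against WT_EC, 5–9 higher and 5–8 lower in SpdefKO_GC against SpdefKO_EC, and 2–9 lower in the interaction. The lower members of SpdefKO_GC against WT_GC numbered 1 without WT_GC 13 or SpdefKO_GC 7 and 2 without WT_GC 9, WT_GC 11, SpdefKO_GC 3 or SpdefKO_GC 19. Leaving the fold bound and the block aside, calls kept under all alternatives were 10 of 16 in SpdefKO_EC against WT_EC, 4 of 8 in SpdefKO_GC against WT_GC, 16 of 17 in WT_GC against WT_EC, 10 of 14 in SpdefKO_GC against SpdefKO_EC, and 2 of 7 in the interaction. Some calls were also lost under alternatives that kept every library of the groups compared. In SpdefKO_EC against WT_EC, Acaca, Sc5d and Insig1 lost the call in 12, 9 and 7 of 15 alternatives. Scap and Insig1 lost it in 10 and 6 in SpdefKO_GC against WT_GC, and Nsdhl in 9 in WT_GC against WT_EC. In SpdefKO_GC against SpdefKO_EC, Scd1 and Srebf2 lost it in 8 and 3. Fdps, Cyp51 and Acly lost it in 9, 14 and 9 of 22 in the interaction. Placing the regulators with a branch took the sterol median in WT_GC against WT_EC to 0.29. With 4 libraries a group, members near the threshold depend on single libraries and on the settings of the fit. The strand setting of the counts bears on the 4 genes with an overlapping gene on the other strand.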
